A study of Homo sapiens with 12 samples.

Results

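The mitochondrial ribosomal protein genes were taken as the protein-coding genes of GENCODE 29 whose symbol starts with MRPL or MRPS followed by a digit. There were 78 such genes among the 58735 genes of the count table, 49 MRPL genes for the large subunit and 29 MRPS genes for the small subunit. mRNA was measured by RNA-seq in ES2, a human ovarian cancer cell line, after loss of FDX2, a mitochondrial ferredoxin needed to build iron-sulfur clusters. All 4 conditions used FDX2-iKO ES2 cells, in which the endogenous FDX2 gene was deleted by genome editing and an HA-tagged, editing-resistant FDX2 cDNA was expressed from a doxycycline (Doxy)-dependent promoter, so that the controls were rescued knockout cells and not unedited cells. The cells were a limiting-dilution clone. The 4 conditions, with 3 biological replicates each, were 20% O2 with Doxy (FDX2 present), 20% O2 without Doxy (FDX2 loss), 3% O2 with Doxy and 3% O2 without Doxy. Cells at 20% O2 were cultured for 6 days in all, and cells at 3% O2 for 4 days at 20% O2 followed by 3 days at 3% O2, so oxygen and total culture time cannot be told apart.

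The mitochondrial ribosome translates the few mRNAs that mitochondrial DNA encodes, all of them for subunits of oxidative phosphorylation complexes. Its rRNAs come from the mitochondrial genome, whereas all of its proteins are encoded in the nucleus, made in the cytosol and imported. Compared with bacterial ribosomes it has less rRNA and many additional, mitochondria-specific proteins. The human small subunit holds iron-sulfur clusters that are bound by MRPS6, MRPS16, MRPS18C and MRPS25, and the assembly factor METTL17 also carries a cluster. Symbols do not always follow position: MRPS18A and MRPS30 sit in the large subunit, and MRPS36 is now known as a subunit of the 2-oxoglutarate dehydrogenase complex. All 3 were kept where their symbols put them.

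Total counts ranged from 24958386 to 34313637 per library. The ovarian and epithelial markers KRT7, KRT8, KRT18 and PAX8 and the mesenchymal marker VIM were present in every library, whereas EPCAM, WT1 and MUC16 stayed at or below 0.260 CPM, which are counts scaled to a common library total. Of 7 markers of blood, endothelial and stromal cells, only COL1A1 was above 0.282 CPM in any library, and it was high in all of them, at 1069 to 2447 CPM. FDX2 itself received 2 to 13 counts per library (5, 2 and 6 with Doxy and 9, 13 and 4 without Doxy at 20% O2, 2, 4 and 12 with Doxy and 7, 7 and 5 without Doxy at 3% O2), too few to check the labels by the targeted gene. There were 3 libraries that stood apart from the rest of their conditions in a related way, namely replicate 1 of 20% O2 with Doxy, replicate 3 of 3% O2 with Doxy and replicate 2 of 3% O2 without Doxy. Across genes with a mean log2 CPM above 2, their deviations from their condition means correlated with each other at 0.765 to 0.818. Across the 78 genes, the same deviations correlated with the GC content of the transcripts at 0.859, 0.708 and 0.602, which describes these libraries and was not tested. Counts of changed genes are therefore given with and without these 3 libraries.

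All 78 genes passed the filter on low counts. The scale of levels here is CPM per kb of exon, averaged over the 3 libraries of 20% O2 with Doxy. The length counts the bases of all annotated exons of a gene, whether or not these cells use them. MRPL42, with 124 CPM over 16393 bases, was thus at 7.59 CPM per kb, and MRPL15, with 94.6 CPM over 1191 bases, at 79.4. The order of genes therefore also depends on the annotated length, and this part was not tested. On this scale the median of the 78 genes was 18.5 and the range 0.370 to 89.9, with medians of 19.1 for the large and 17.6 for the small subunit. The highest was MRPL51, a mitochondria-specific large-subunit protein, at 89.9 ± 5.80 CPM per kb (SD, n = 3). It was followed by MRPL15 at 79.4 ± 1.99, MRPL24 at 68.1 ± 0.153, MRPL3 at 66.0 ± 4.58 and MRPL37 at 61.8 ± 1.70 CPM per kb. MRPL24 and MRPL3, both counterparts of bacterial large-subunit proteins, did not differ beyond their spread, and neither did MRPL3 and MRPL37.

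The 5 lowest genes were MRPS17 at 3.62 ± 0.230, MRPL53 at 2.52 ± 0.380, MRPL38 at 1.63 ± 0.268, MRPL46 at 1.62 ± 0.0584 and MRPS24 at 0.370 ± 0.104 CPM per kb. MRPL38 and MRPL46 did not differ beyond their spread. All 5 of them shared more than 10% of their exonic bases with another gene on the same strand, which was the case for 10 of the 78 genes. MRPS24, a counterpart of bacterial S3, shared 23.2% of its exonic bases with the readthrough gene URGCP-MRPS24 and had 22 to 56 counts per library. How reads in shared exons were counted is not given in the sources used here, so the levels of these 10 genes are uncertain, and the part of shared exons in the order of levels was not tested. MRPL12, which also binds the mitochondrial RNA polymerase, had the largest shared fraction of the 10, 68.2%. MRPL30, at 19.5%, and MRPL20, at 10.5%, were also among the 10.

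Summed over the 78 genes, mitochondrial ribosomal protein mRNA made up 4529 to 4593 CPM at 20% O2 with Doxy, 4325 to 4418 CPM without Doxy, 4221 to 4312 CPM at 3% O2 with Doxy and 4240 to 4277 CPM at 3% O2 without Doxy. The 3 libraries of FDX2-proficient cells at 20% O2 lay above the other 9. At 20% O2 the large-subunit genes summed to 2837 ± 13.9 CPM with Doxy and 2692 ± 34.4 CPM without (SD, n = 3), with no overlap between the libraries, and the small-subunit genes to 1715 ± 27.5 and 1682 ± 14.7 CPM, also without overlap but with a gap smaller than either SD. At 3% O2 the sums with and without Doxy were 2646 ± 32.2 and 2653 ± 32.0 CPM for the large and 1621 ± 28.4 and 1610 ± 12.5 CPM for the small subunit, and the libraries overlapped. The small subunit held 37.7 ± 0.349, 38.5 ± 0.188, 38.0 ± 0.475 and 37.8 ± 0.459% of the summed mRNA in the 4 conditions. These sums are descriptions with no test, and in bulk samples fewer cells of a type and less RNA per cell cannot be told apart.

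**Figure D1:**
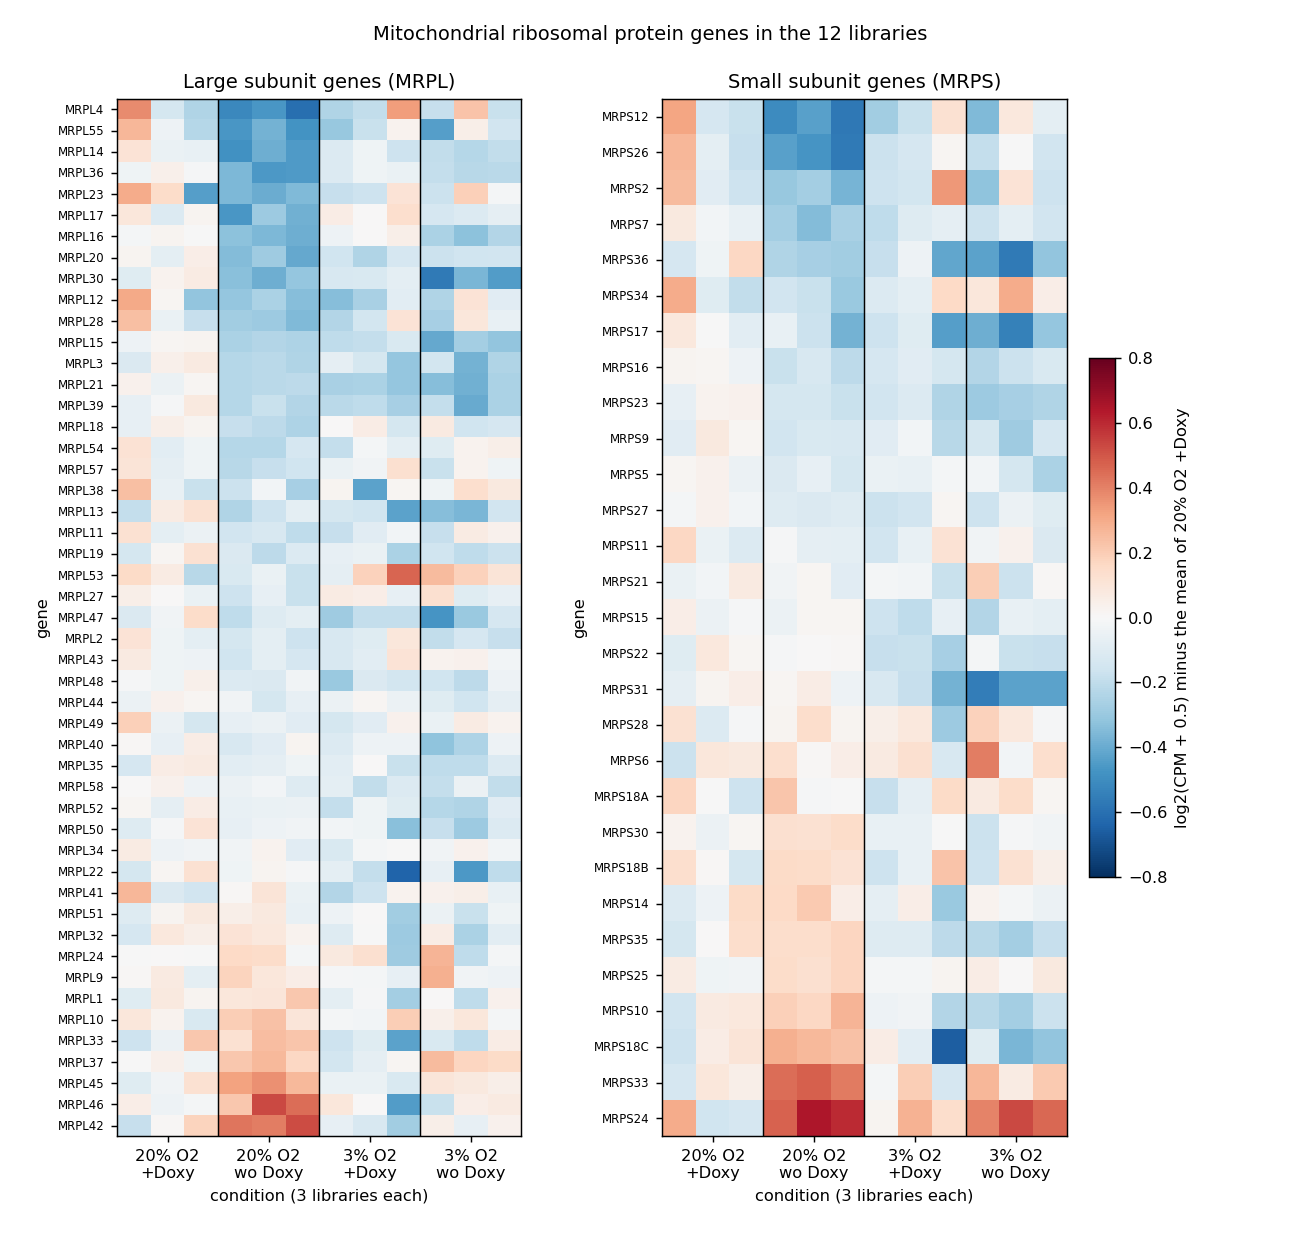
Level of each gene in each of the 12 libraries, as log2(CPM + 0.5) minus the mean of the 3 libraries of 20% O2 with Doxy (blue, lower, and red, higher). Rows are the 49 large-subunit and 29 small-subunit genes, ordered by their change upon FDX2 loss at 20% O2, and columns are the libraries of the 4 conditions. The change is seen most evenly in the 3 libraries of 20% O2 without Doxy, from MRPL4 and MRPS12 (lowest) to MRPL42 and MRPS24 (highest).

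To ask how FDX2 loss at 20% O2 affected these genes, cells without Doxy were compared with cells with Doxy. In this comparison 19 of the 78 genes fell and 7 rose, taking an adjusted p below 0.05 as the threshold (quasi-likelihood test of edgeR, with Benjamini-Hochberg adjustment over the 16891 genes tested). The share that changed, 33.3%, was near that of all genes tested, 35.3%. Split by direction, 24.4% of the 78 genes fell and 8.97% rose, against 17.7% and 17.6% of all genes. Changes were small: the 78 log2 fold changes ran from -0.56 to 0.77 with a median of -0.10, against 0.01 for all genes, and no gene changed by 2-fold. Of the 49 large-subunit genes 14 fell and 4 rose (median -0.13), and of the 29 small-subunit genes 5 fell and 3 rose (median -0.01).

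Among the large-subunit genes that fell, MRPL14, whose protein lies at the interface of the subunits, had 45.6, 40.7 and 40.4 CPM with Doxy and 29.98, 32.0 and 30.7 CPM without. MRPL36, a small zinc-binding protein, had 35.4, 37.4 and 36.1 CPM with Doxy and 28.2, 26.3 and 26.4 CPM without. In both, every library without Doxy was below every library with Doxy, with log2 fold changes of -0.45 ± 0.06 (SE, adjusted p = 0.000206) and -0.43 ± 0.05 (adjusted p = 7.21e-05) by edgeR. MRPL20, the counterpart of a bacterial protein that binds rRNA early in assembly, fell by 0.35 on the log2 scale, from 74.5, 69.5 and 75.9 CPM to 57.5, 60.2 and 55.0 CPM, again without overlap (adjusted p = 0.000518, edgeR). MRPL16, close to the peptidyl transferase centre, fell from 39.6, 40.7 and 39.9 CPM to 31.8, 31.2 and 30.5 CPM, and MRPL30 from 56.8, 61.8 and 63.6 CPM to 48.1, 46.2 and 48.9 CPM, the log2 fold changes being -0.36 and -0.35.

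MRPL4, which lines the nascent peptide exit tunnel, had 113, 79.1 and 73.5 CPM with Doxy and 60.8, 62.8 and 57.1 CPM without (log2 fold change -0.56 ± 0.19, adjusted p = 0.0423, edgeR). The libraries did not overlap, but those with Doxy were far apart, and the highest of them was 1 of the 3 libraries that stood apart. Without these 3 libraries the log2 fold change of MRPL4 was -0.35, smaller in size than those of MRPL36 (-0.46), MRPL30 (-0.41) and MRPL14 (-0.40), with the GC trend taken out it was -0.26, and the call held in 1 of the 6 fits that left out a library. MRPL55, a mitochondria-specific protein, had 30.4, 24.5 and 21.4 CPM with Doxy and 18.1, 19.2 and 17.9 CPM without (log2 fold change -0.47, adjusted p = 0.0286, edgeR). The other 7 large-subunit genes that fell, MRPL3, MRPL15, MRPL17, MRPL18, MRPL21, MRPL39 and MRPL54, did so by 0.20 to 0.38 on the log2 scale. With the GC trend taken out, MRPL55 was at -0.24 and kept its call. MRPL54 turned to 0.05 (adjusted p = 0.768, edgeR), MRPL21 to -0.10 and MRPL18 to -0.18 (adjusted p = 0.0864, edgeR), each without a call.

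In the small subunit, MRPS12, part of the decoding centre, and the mitochondria-specific MRPS26 were among the 5 genes that fell. MRPS12 had 46.4, 33.8 and 32.8 CPM with Doxy and 26.1, 27.4 and 24.9 CPM without, and MRPS26 had 45.6, 35.7 and 33.2 CPM with Doxy and 27.8, 27.1 and 25.4 CPM without. Neither gene overlapped between the groups, and the log2 fold changes were -0.53 ± 0.15 (adjusted p = 0.0213) and -0.51 ± 0.11 (adjusted p = 0.00408) by edgeR. MRPS7, which binds the head of the small subunit rRNA, fell by 0.30 on the log2 scale, from 82.2, 76.7 and 74.5 CPM to 64.3, 61.0 and 64.7 CPM. The high library with Doxy of MRPS12 and MRPS26 was replicate 1, which stood apart, and with the GC trend taken out their log2 fold changes were -0.32 and -0.22, against -0.24 for MRPS7, all 3 past the test. MRPS16 and MRPS23 completed the 5.

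Of the 7 genes that rose, 4 belong to the large subunit. MRPL42, a mitochondria-specific protein, had 109, 125 and 140 CPM with Doxy and 167, 164 and 178 CPM without (log2 fold change 0.45 ± 0.09, adjusted p = 0.00252, edgeR). MRPL45, which faces the inner membrane at the exit of the peptide tunnel, rose from 41.1, 43.0 and 47.8 CPM to 55.0, 56.6 and 52.5 CPM, and MRPL46 from 10.8, 10.1 and 10.3 CPM to 12.1, 15.2 and 14.4 CPM. None of the 3 overlapped between the groups. MRPL37, among the 5 highest genes per length, rose by 0.21 on the log2 scale.

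In the small subunit, MRPS33 rose from 37.1, 43.5 and 42.3 CPM to 56.0, 57.0 and 54.6 CPM, and MRPS24 from 1.28, 0.797 and 0.823 CPM to 1.51, 1.77 and 1.69 CPM. Both did so without overlap, with log2 fold changes of 0.45 ± 0.09 (adjusted p = 0.00299) and 0.77 ± 0.21 (adjusted p = 0.0146) by edgeR. The fold of MRPS24, the largest of the 78, rests on 22 to 40 counts with Doxy and 47 to 56 without, and on a gene with shared exons.

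Among the 4 genes for iron-sulfur proteins of the small subunit, 1 fell and 1 rose, where 17.7% and 17.6% of all genes did. MRPS16 had 129, 129 and 124 CPM with Doxy and 112, 116 and 110 CPM without (log2 fold change -0.17 ± 0.05, adjusted p = 0.0152, edgeR), and MRPS25 had 111, 103 and 104 CPM with Doxy and 117, 116 and 119 CPM without (0.15 ± 0.05, adjusted p = 0.0264). Neither overlapped between the groups. The call of MRPS16 held in 5 of the 6 fits that left out a library, and that of MRPS25 in 1 of the 6. With the trend on exon length taken out, MRPS16 was at -0.10 without a call (adjusted p = 0.123, edgeR). With the replicate number as a block, MRPS25 just missed the threshold (adjusted p = 0.05004, edgeR). MRPS18C (28.1, 32.9 and 34.0 against 38.5, 37.8 and 37.2 CPM, log2 fold change 0.26, adjusted p = 0.224) and MRPS6 (40.5, 48.7 and 48.4 against 50.3, 46.1 and 47.5 CPM, log2 fold change 0.06, adjusted p = 0.701) did not pass the test. The paralogs of MRPS18C, MRPS18A and MRPS18B, had log2 fold changes of 0.07 and 0.14 and did not pass it either. MRPL12 had 37.1, 30.2 and 24.0 CPM with Doxy and 24.1, 25.1 and 23.6 CPM without, groups that overlapped (log2 fold change -0.33, adjusted p = 0.0959).

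Without the 3 libraries that stood apart, 27 genes fell and 11 rose, against 22.8% and 19.7% of all genes, and the 27 were 18 large-subunit and 9 small-subunit genes. Of the 19 genes that fell in the full set, 18 did so here too, as did all 7 that rose. When each library was left out in turn, 10 of the 19 (MRPL14, MRPL15, MRPL16, MRPL17, MRPL20, MRPL21, MRPL30, MRPL36, MRPS7 and MRPS26) and 3 of the 7 (MRPL42, MRPL45 and MRPS33) kept their call every time. The difference of the subunit medians, large minus small, was -0.13 with all libraries and -0.08 without these 3. Log2 fold changes in this comparison correlated with GC content at r = -0.41 across the 78 genes, which share their libraries. With the trend on GC content taken out, 22 genes fell and 12 rose (20.3% and 26.5% of all genes), and with the trend on exon length taken out, 11 fell and 10 rose (14.4% and 20.6%), so that the split between lower and higher depended on this correction. The part of GC content and length in the result was not tested.

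**Figure D2:**
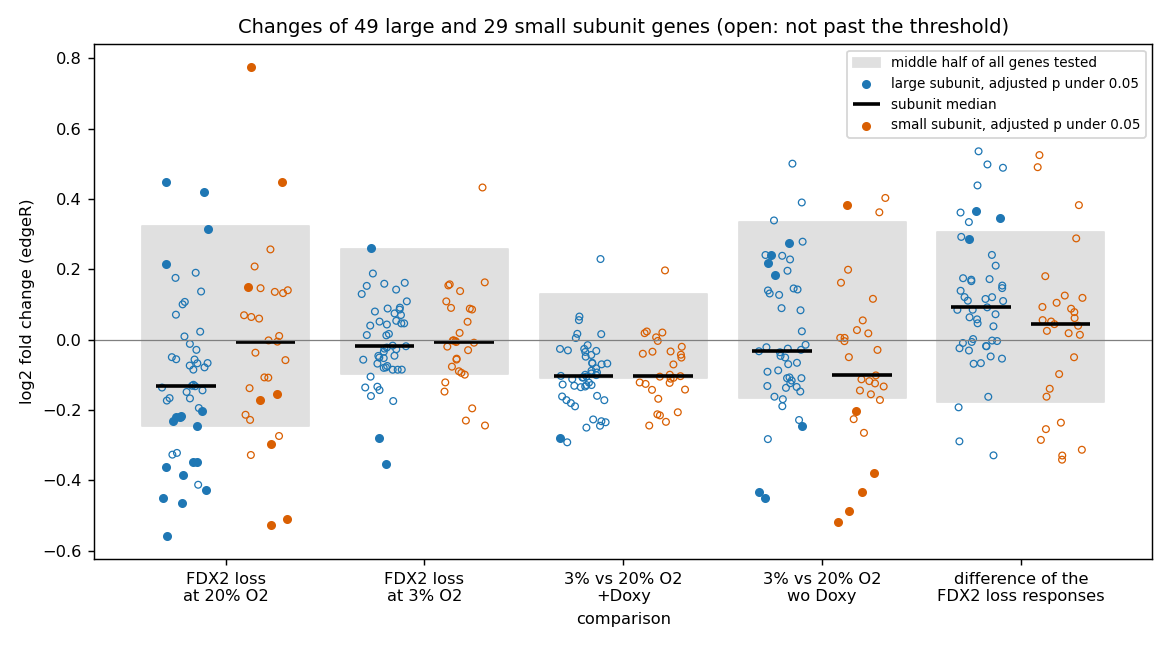
Log2 fold changes (edgeR) of the 49 large-subunit (blue) and 29 small-subunit (orange) genes in the 5 comparisons on the x axis. Filled points passed an adjusted p of 0.05, black bars are subunit medians, and grey boxes span the middle 50% of all genes tested. At 20% O2, FDX2 loss gave a median of -0.13 for the large and -0.01 for the small subunit, and at 3% O2 the medians were -0.02 and -0.01. The counts of filled points change with corrections for GC content and exon length.

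The same question was asked at 3% O2. Here 2 of the 78 genes fell and 1 rose (3.85% of the 78, against 7.31% of all genes, of which 3.11% fell and 4.20% rose), with a median log2 fold change of -0.01 (0.04 for all genes). All 3 encode large-subunit proteins. MRPL30 had 55.6, 55.7 and 57.4 CPM with Doxy and 40.8, 46.9 and 44.3 CPM without (log2 fold change -0.35 ± 0.06, adjusted p = 0.00768, edgeR). MRPL16 had 39.0, 40.1 and 41.4 CPM with Doxy and 33.6, 31.7 and 34.0 CPM without (-0.28 ± 0.05, adjusted p = 0.00702). Both groups were apart in both genes.

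MRPL37, a mitochondria-specific large-subunit protein, rose from 142, 150 and 159 CPM to 188, 178 and 175 CPM (log2 fold change 0.26 ± 0.05, adjusted p = 0.0164, edgeR). No small-subunit gene passed the test by edgeR, and 1 of the 29 had an unadjusted p under 0.05. The iron-sulfur proteins MRPS6, MRPS16, MRPS18C and MRPS25 had log2 fold changes from -0.06 to 0.16. Without the 3 libraries that stood apart, 7 genes fell and 1 rose (7.72% and 7.48% of all genes), the 7 being 3 large-subunit and 4 small-subunit genes. When edgeR was fitted to these 6 libraries alone, the calls were lost, with adjusted p of 0.0541 for MRPL30, 0.0581 for MRPL16 and 0.127 for MRPL37.

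MRPL16 and MRPL30 had similar log2 changes at both oxygen levels (-0.36 and -0.28 for MRPL16, -0.35 and -0.35 for MRPL30), and the differences between the oxygen levels were 0.09 ± 0.07 (adjusted p = 0.494) and -0.004 ± 0.09 (adjusted p = 0.985, edgeR). MRPL37 likewise rose at both, by 0.21 and 0.26 on the log2 scale. MRPL30 shared 19.5% of its exonic bases with other genes on the same strand, so its counts are uncertain. The comparisons at 20% and 3% O2 share no library, but the spread was estimated over all 12. Replicates did not spread equally in the 4 conditions. At 20% O2 the median chi-square per degree of freedom between replicates was 4.54 with Doxy and 1.32 without. At 3% O2 it was 3.98 with Doxy and 3.30 without. Standard errors and p-values from the shared estimate therefore need not hold equally well in each comparison. Some libraries also deviated together across oxygen levels, such as replicate 1 of 20% O2 with Doxy and replicate 3 of 3% O2 with Doxy (correlation 0.818). Whether these measurements are independent was therefore not shown.

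The response to FDX2 loss was then compared between oxygen levels by an interaction term. It passed the test for 3 of the 78 genes, MRPL14, MRPL20 and MRPL36, all of the large subunit and all higher at 3% than at 20% O2. Among all genes tested, 7.29% passed, 3.21% higher and 4.08% lower. MRPL14 had 39.0, 41.2 and 37.6 CPM with Doxy and 36.7, 36.0 and 36.8 CPM without at 3% O2, groups that were apart by less than 1 CPM, and its responses differed by 0.35 ± 0.09 on the log2 scale (adjusted p = 0.0360, edgeR). MRPL20 had 65.4, 62.0 and 66.6 CPM with Doxy and 64.8, 65.5 and 65.9 CPM without, groups that overlapped, and a difference of 0.37 ± 0.08 (adjusted p = 0.0168). MRPL36 had 33.6, 35.4 and 34.9 CPM with Doxy and 31.8, 31.1 and 31.3 CPM without, groups that did not overlap, and a difference of 0.28 ± 0.07 (adjusted p = 0.0346).

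These 3 calls were sensitive to the libraries and the fit. All 3 held without the 3 libraries that stood apart, where 6 genes were called higher and 2 lower (9.05% and 5.90% of all genes). None passed without replicate 1 or replicate 3 of 20% O2 without Doxy, none passed with the trend on exon length taken out or with the replicate number as a block (adjusted p = 0.0814 for MRPL14, 0.0541 for MRPL20 and 0.0937 for MRPL36, edgeR), and 1 of them, MRPL20, passed with the trend on GC content taken out, where 5 genes were higher and 4 lower (9.07% and 9.76% of all genes). Across the 78 genes the interaction correlated with GC content at r = 0.62, and the part of GC content was not tested. MRPL20 shared 10.5% of its exonic bases with other genes on the same strand, so its counts are uncertain.

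**Figure D3:**
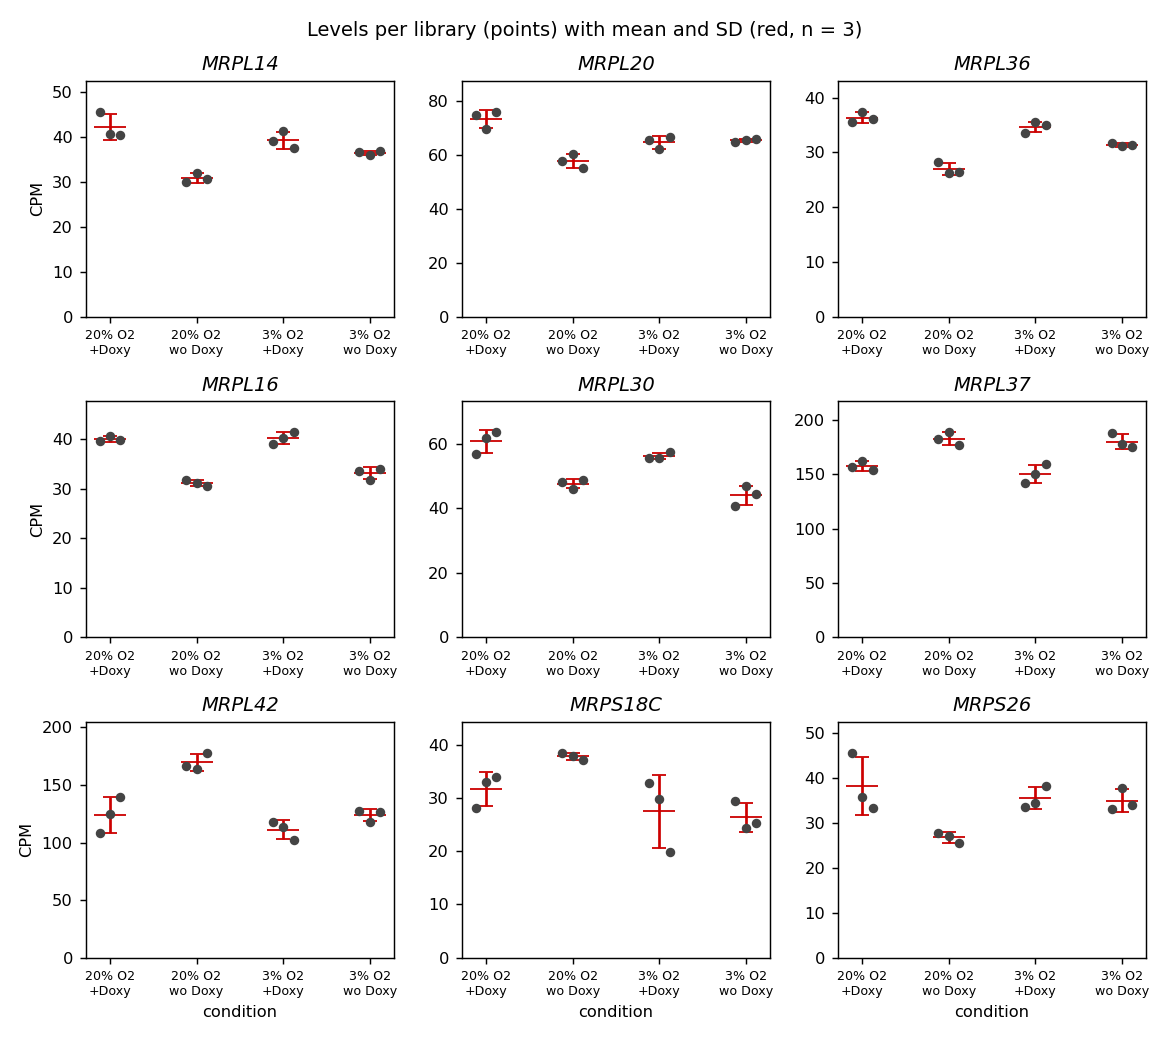
CPM of 9 genes in each of the 12 libraries, by condition on the x axis, with the y axis from 0. Grey points are libraries and red bars the mean and SD of 3. MRPL14, MRPL20 and MRPL36 are lowest at 20% O2 without Doxy, whereas MRPL16 and MRPL30 are lower without Doxy at both oxygen levels.

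Promoter sequences are shown for these 5 genes because they form the groups that the results turn on, 3 whose response to FDX2 loss differed between oxygen levels and 2 that fell at both. RefSeq start-site windows (GRCh38.p14, 250 bases before to 50 after the start) matched 69 of the 78 genes by symbol. Motifs of factors known to act on nuclear genes for mitochondrial proteins were searched on both strands. NRF1 was searched by a consensus in which any base was allowed at an inner position, so its matches need not be palindromes. ETS factors such as GABPA were searched as CCGGAAG, YY1 as AANATGGC and the E-box of MYC as CACGTG. The ETS motif was found in 42.03% of the 69 windows and in 10.7% of all 27305 windows, the YY1 motif in 36.2% and 6.82%, the NRF1 motif in 11.6% and 6.28%, and the E-box in 8.70% and 7.43%. A match describes the letters only. The stretches below run from 150 bases before to 10 bases after the start, with motif matches in capitals, none of which overlap.
MRPL36, chr5:1799828-1799987, minus strand: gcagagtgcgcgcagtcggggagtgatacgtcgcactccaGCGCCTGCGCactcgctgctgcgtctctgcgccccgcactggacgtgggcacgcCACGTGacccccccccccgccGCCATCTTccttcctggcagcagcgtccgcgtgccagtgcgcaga
MRPL14, chr6:44127299-44127458, minus strand: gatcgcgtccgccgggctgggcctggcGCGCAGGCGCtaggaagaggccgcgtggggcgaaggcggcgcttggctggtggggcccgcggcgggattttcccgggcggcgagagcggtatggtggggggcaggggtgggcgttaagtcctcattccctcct
MRPL20, chr1:1407284-1407443, minus strand: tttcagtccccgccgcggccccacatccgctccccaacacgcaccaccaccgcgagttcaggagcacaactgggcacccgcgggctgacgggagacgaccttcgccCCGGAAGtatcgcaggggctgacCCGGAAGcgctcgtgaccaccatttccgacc
MRPL16, chr11:59810769-59810928, minus strand: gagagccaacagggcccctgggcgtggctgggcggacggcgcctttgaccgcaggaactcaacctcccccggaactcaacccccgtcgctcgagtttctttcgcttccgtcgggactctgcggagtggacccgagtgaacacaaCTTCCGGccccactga
MRPL30, chr2:99181034-99181193, plus strand: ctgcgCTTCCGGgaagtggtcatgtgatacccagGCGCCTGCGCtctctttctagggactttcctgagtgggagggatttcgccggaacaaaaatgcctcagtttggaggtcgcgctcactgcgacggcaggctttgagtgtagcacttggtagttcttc

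The 3 genes of the first group did not share a motif. An NRF1 match was found in MRPL36 and MRPL14, at -110 and -123 from the start, and 2 ETS matches in MRPL20, at -44 and -21. MRPL36 also held an E-box at -56 and a YY1 match at -35. In the second group, MRPL16 held an ETS match at -6, and MRPL30 an ETS match at -145 and an NRF1 match at -116.

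The effect of 3% O2 itself was compared with 20% O2 in cells with Doxy. Only MRPL21, the counterpart of a bacterial large-subunit protein, passed the test, against 2.02% of all genes, of which 0.385% fell and 1.63% rose. It had 42.8, 40.4 and 42.2 CPM at 20% O2 and 34.8, 34.95 and 33.6 CPM at 3% O2, without overlap (log2 fold change -0.28 ± 0.05, adjusted p = 0.0142, edgeR). The changes were mostly of the same sign: 67 of the 78 log2 fold changes were negative, with a median of -0.10 in both subunits, whereas the median of all genes was -0.005. The 77 cytosolic ribosomal protein genes had a median of -0.12, with 71 negative and none past the test by edgeR (13 with an unadjusted p under 0.05). The difference between both families was not tested. Without the 3 libraries that stood apart, 4 genes fell and none rose (0.938% and 2.09% of all genes). MRPL21 was among the 4, and its log2 fold change was -0.30 with the trend on GC content taken out and -0.25 with that on exon length, neither past the test (adjusted p = 0.0615 and 0.0523, edgeR).

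In cells without Doxy, 8 genes were lower and 5 higher at 3% than at 20% O2 (16.7% of the 78, against 25.8% of all genes, of which 11.9% were lower and 13.9% higher). This comparison shares the libraries of 20% O2 without Doxy with the comparison of FDX2 loss above, so that opposite signs in the 2 comparisons are partly given by the shared libraries. The small subunit had 5 of the 8 lower genes. MRPS31 had 25.4, 26.2 and 24.4 CPM at 20% O2 and 17.0, 18.6 and 18.5 CPM at 3% O2 (log2 fold change -0.49 ± 0.07, adjusted p = 0.000992, edgeR). MRPS10, in the head of the small subunit, had 103, 101 and 109 CPM at 20% O2 and 77.2, 74.4 and 80.1 CPM at 3% O2 (-0.43 ± 0.08, adjusted p = 0.00260). Neither gene overlapped between the groups.

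MRPS18C, an iron-sulfur protein, had the largest fall, from 38.5, 37.8 and 37.2 CPM to 29.5, 24.4 and 25.3 CPM (log2 fold change -0.52 ± 0.15, adjusted p = 0.0306, edgeR), also without overlap. This call of MRPS18C held in 1 of the 6 fits that left out a library, and its log2 fold change was -0.37 with the GC trend taken out. MRPL42 had 128, 118 and 126 CPM at 3% O2, below its 164 to 178 CPM at 20% O2 (-0.45, adjusted p = 0.00430), and MRPL46 had 9.14, 10.8 and 10.9 CPM, below its 12.1 to 15.2 CPM (-0.43, adjusted p = 0.0425). MRPS35, MRPL45 and MRPS30 fell by 0.38, 0.24 and 0.20 on the log2 scale. The 5 genes that rose were MRPS26 (0.38), MRPL17 (0.28), MRPL14 (0.24), MRPL36 (0.22) and MRPL20 (0.18), with adjusted p from 0.00982 to 0.0282 by edgeR. When each library was left out in turn, 4 of the 8 that fell (MRPL42, MRPS10, MRPS31 and MRPS35) and 0 of the 5 that rose kept their call every time.

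In this comparison same-numbered libraries were taken as paired because they deviated together in these data. The sample titles state no pairing, and the calls above come from a fit without a block. With the replicate number as a block, fitted on these 6 libraries, 11 genes fell and 10 rose (14.1% and 17.0% of all genes). The same 6 libraries without a block gave 11 genes that rose, and the block in the model of all 12 libraries gave 7 that fell and 3 that rose, so the higher count went with fitting these libraries alone. Log2 fold changes correlated with GC content at r = 0.72 across the 78 genes, against 0.34 across all genes tested. With the GC trend taken out 18 genes fell and 1 rose (16.4% and 17.6% of all genes), with the length trend taken out 11 fell and 1 rose (13.5% and 12.2%), and without the 3 libraries that stood apart 15 fell and 8 rose (14.5% and 19.0% of all genes). Of the 8 genes that fell, 6 also did so with each trend taken out in turn, and of the 5 that rose, MRPL17 did. The other 4, MRPL14, MRPL20, MRPL36 and MRPS26, were at 0.07, 0.06, 0.08 and 0.01 with the GC trend taken out. The part of GC content in the result was not tested.

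**Figure D4:**
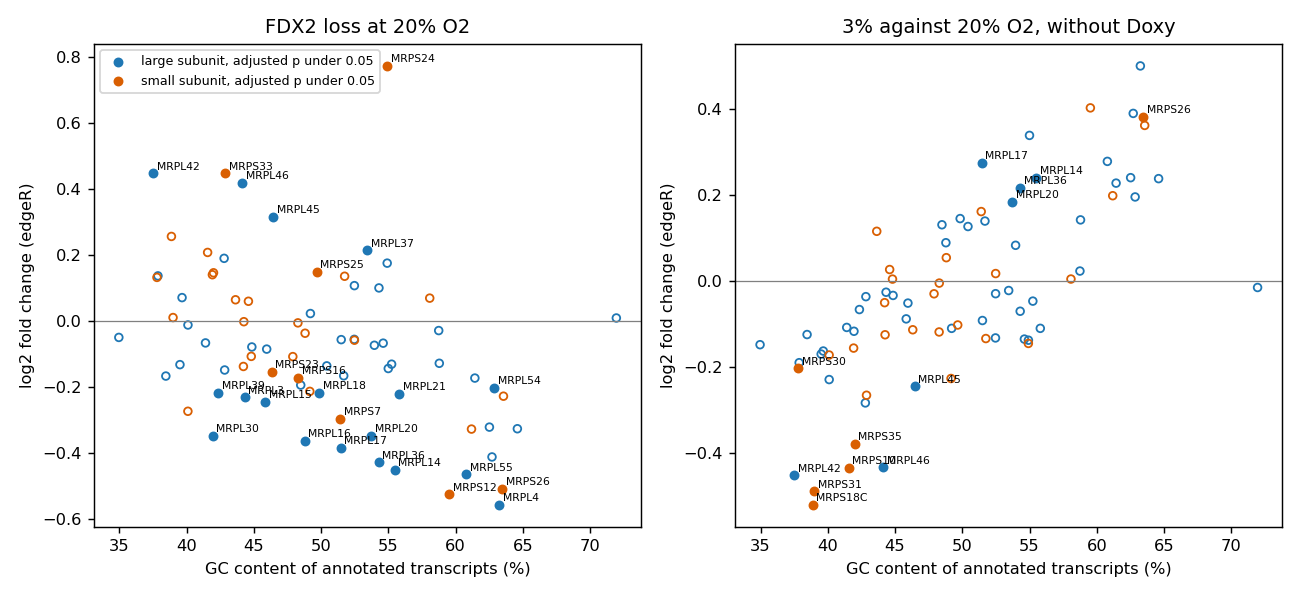
Log2 fold change (edgeR) of the 78 genes against the GC content of their annotated transcripts in percent, for FDX2 loss at 20% O2 (left) and for 3% against 20% O2 without Doxy (right). Large-subunit genes are blue and small-subunit genes orange, and filled, named points passed an adjusted p of 0.05. The correlation is -0.41 on the left and 0.72 on the right, and both panels use the libraries of 20% O2 without Doxy.

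Of 5 genes for structural proteins of the ribosome without an MRP symbol, only AURKAIP1 fell upon FDX2 loss at 20% O2, from 130, 97.002 and 97.4 CPM to 85.7, 83.5 and 81.2 CPM, without overlap (log2 fold change -0.37, adjusted p = 0.0403, edgeR). The library at 130 CPM was replicate 1, which stood apart, and without it the log2 fold change was -0.23 (adjusted p = 0.110). The call was also lost without each library of 20% O2 without Doxy (adjusted p from 0.0655 to 0.0779), and with the GC trend taken out the log2 fold change was 0.006. DAP3, a GTP-binding protein of the small subunit, had 118, 121 and 125 CPM with Doxy and 129, 134 and 129 CPM without, groups that did not overlap but did not pass the test (log2 fold change 0.11, adjusted p = 0.202). None of the 5 passed the test in the other comparisons by edgeR, where 2.02 to 25.8% of all genes did.

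Of 27 assembly factors, 8 fell and 5 rose upon FDX2 loss at 20% O2 (48.1%, against 35.3% of all genes, a difference that was not tested). DHX30, an RNA helicase, fell by 0.74 on the log2 scale, RBFA, which matures the small subunit rRNA, by 0.53 and C1QBP, a matrix protein, by 0.47. C1QBP had 372, 364 and 357 CPM with Doxy and 262, 267 and 261 CPM without, RBFA had 15.6, 15.1 and 15.02 CPM with Doxy and 10.9, 10.6 and 10.1 CPM without, and neither overlapped.

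Among the assembly factors that rose, YBEY, an endoribonuclease, went from 10.1, 10.001 and 10.02 CPM to 16.5, 15.5 and 15.6 CPM (log2 fold change 0.66, adjusted p = 1.47e-05, edgeR), and METTL15, a methyltransferase of the small subunit rRNA, and GTPBP10, a GTPase of the large subunit, rose by 0.43 and 0.42. METTL17, the assembly factor with an iron-sulfur cluster, had 57.6, 53.9 and 52.6 CPM with Doxy and 49.3, 48.7 and 47.5 CPM without (-0.17, adjusted p = 0.0430), without overlap. At 3% O2 the only one of the 27 to change upon FDX2 loss was FASTKD2, which fell by 0.32 (7.31% of all genes changed). In cells without Doxy, 7 of the 27 fell and 7 rose at 3% O2 (11.9% and 13.9% of all genes), with DHX30 0.56 higher and GTPBP10 0.60 lower on the log2 scale.

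Of 17 translation factors, 4 rose and 1 fell upon FDX2 loss at 20% O2 (29.4%, against 35.3% of all genes). The initiation factors MTIF2 and MTIF3 and the release factor family member MTRF1 rose by 0.37, 0.31 and 0.36 on the log2 scale, and the elongation factor TSFM fell by 0.44. Of 12 genes for transcription and processing of mitochondrial RNA, 3 fell and 2 rose (41.7%): ELAC2, which trims tRNA precursors, fell by 0.73, TFB2M by 0.42 and TFAM by 0.39, whereas POLG2 and SUPV3L1 rose by 0.33 and 0.18. None of the 17 and none of the 12 passed the test upon FDX2 loss at 3% O2 by edgeR, where 7.31% of all genes did. In each list 3 had an unadjusted p under 0.05.

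Among 11 regulators of mitochondrial biogenesis, 5 fell and 2 rose upon FDX2 loss at 20% O2 (17.7% and 17.6% of all genes). PPARGC1A, the coactivator PGC-1α, had 1.31, 1.49 and 1.65 CPM with Doxy and 4.56, 4.11 and 4.23 CPM without, a log2 fold change of 1.53 (adjusted p = 8.14e-06, edgeR) without overlap. Its paralog PPARGC1B had 17.1, 16.6 and 16.8 CPM with Doxy and 10.7, 11.9 and 11.8 CPM without (-0.56), and the transcription factor NRF1 had 25.1, 25.7 and 24.0 CPM with Doxy and 16.2, 17.2 and 18.5 CPM without (-0.53). At 3% O2 PPARGC1B fell as well, by 0.50 on the log2 scale, and PPARGC1A had a log2 fold change of 0.46 (adjusted p = 0.0570).

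Both mitochondrial rRNAs, the RNA partners of these proteins, had higher counts upon FDX2 loss at 20% O2. The libraries were made from poly(A)-selected RNA, so these counts cover only the rRNA that was captured. The small subunit rRNA MT-RNR1 had 392, 445 and 466 CPM with Doxy and 535, 590 and 585 CPM without at 20% O2, and the large subunit rRNA MT-RNR2 rose by 0.55 on the log2 scale (adjusted p = 0.000536, edgeR). MT-RNR1 changed by 0.39 (adjusted p = 0.01001). Of the 13 mitochondrial mRNAs, MT-ND1 and MT-ND2 rose by 0.66 and 0.43 and MT-ND6 fell by 0.71 (23.1% of the 13, against 35.3% of all genes). The summed rRNA was 2162 ± 236 and 3107 ± 88.2 CPM at 20% O2 and 1828 ± 111 and 2038 ± 153 CPM at 3% O2, with and without Doxy (SD, n = 3). At 3% O2 no mitochondrial rRNA or mRNA passed the test upon FDX2 loss by edgeR, against 7.31% of all genes, and 1 rRNA and 3 mRNAs had an unadjusted p under 0.05.

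The 77 cytosolic ribosomal protein genes serve as a comparison. Upon FDX2 loss at 20% O2, 8 fell and 4 rose (15.6%), with a median log2 fold change of -0.01, so that a smaller share passed the test than of the 78 mitochondrial ribosomal protein genes (33.3%) or of all genes (35.3%). At 3% O2 none passed it by edgeR, against 7.31% of all genes, and 4 had an unadjusted p under 0.05.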

How the data were processed

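RNA-seq reads of 12 ES2 libraries, made from poly(A) RNA, had been aligned with STAR to GRCh38 and counted with featureCounts by the authors, and the deposited table holds whole-number counts per GENCODE gene, with no normalization. Strand setting and treatment of shared exons are not given in the sources used here. All 58735 gene IDs matched GENCODE 29. Groups followed the sample titles. Counts were fitted with edgeR 4.0.16 (R 4.3.3, limma 3.58.1): filterByExpr (minimum count 10, minimum total 15) kept 16891 genes, TMM scaling was applied, and quasi-likelihood tests used 4 condition means over 12 libraries (8 residual degrees of freedom), with Benjamini-Hochberg adjustment over all genes and a threshold of 0.05. DESeq2 1.42.0 was an alternative. The biological coefficient of variation was 16.3%. CPM use TMM-scaled library sizes. Pearson's r across genes is descriptive. Scripts were tested on simulated data in which 200 genes changed by 2-fold. Of these, 120 were recovered for FDX2 loss at 20% O2 and 94 for the interaction. A gene that did not pass the test may therefore still have changed.

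Named genes were, per comparison, the 5 largest changes in each direction among members past the threshold, the 3 largest in each direction of the other lists, and fixed genes (the iron-sulfur proteins, the MRPS18 family, MRPL12, DAP3, METTL17, and the 5 highest and 5 lowest per kb); the remaining named genes were chosen after their values were seen. Members and lists were chosen with earlier results of these data known. Same-numbered libraries deviated together in every pair only between 20% and 3% O2 without Doxy (correlations 0.363, 0.247 and 0.353), which were taken as paired. Between 20% and 3% O2 with Doxy the same correlations were -0.755, 0.438 and -0.772. The block over all 4 conditions therefore does not rest on a pairing seen in the data.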

Additional observations from a re-analysis of the deposited data

Results flagged for a closer look

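The response to FDX2 loss differed between 3% and 20% O2 by the interaction term of edgeR (adjusted p under 0.05) for 13 of the 165 genes followed here (7.88%, near the 7.29% of all genes tested). Among mitochondrial ribosomal protein genes these were MRPL20 (difference of log2 fold changes, 3% minus 20% O2, 0.37), MRPL14 (0.35) and MRPL36 (0.28). Among assembly factors, MRM2, a methyltransferase of the large subunit rRNA, differed by 0.36, C1QBP by 0.36 and RBFA by 0.34, and YBEY by -0.47, METTL15 by -0.47 and NSUN4, a further rRNA methyltransferase, by -0.29. ELAC2 differed by 0.53, the initiation factor MTIF2 by -0.30, PPARGC1A by -1.08 and the rRNA MT-RNR1 by -0.52. Each of these genes had the larger absolute response at 20% O2. All 13 differences are single tests among 16891, and the calls of the 3 mitochondrial ribosomal protein genes were each lost without some of the libraries.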

How the results depend on the processing

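Counts are given as genes of the 78 called by edgeR, with 7 higher and 19 lower upon FDX2 loss at 20% O2, 1 and 2 at 3% O2, 0 and 1 for 3% O2 with Doxy, 5 and 8 for 3% O2 without Doxy, and 3 and 0 for the difference of the responses as reported. The share of all genes called is given above for only some of the settings below, so a changed count may not be particular to these genes. Leaving out each library in turn gave 3 to 6 higher and 11 to 17 lower for FDX2 loss at 20% O2, 0 to 1 and 2 to 3 at 3% O2, 0 to 0 and 0 to 1 for 3% O2 with Doxy, 1 to 5 and 5 to 7 for 3% O2 without Doxy, and 0 to 7 and 0 to 3 for the difference. For FDX2 loss at 20% O2, 3 were higher without replicate 2 of 20% O2 without Doxy and 4 without replicate 2 of 20% O2 with Doxy, and 11 and 12 were lower without replicates 1 and 3 of 20% O2 without Doxy. For 3% O2 without Doxy, 1 was higher without replicate 1 or 3 of 20% O2 without Doxy, 3 were higher without its replicate 2 or without replicate 2 or 3 of 3% O2 without Doxy, and 5 were lower without replicate 2 or 3 of 20% O2 without Doxy. MRPL37 lost its call at 3% O2 without replicate 1 or 2 with Doxy or replicate 1 without Doxy, and MRPL21 lost its call without replicate 3 of 20% O2 with Doxy or replicate 2 of 3% O2 with Doxy. For the difference, 7 were higher without replicate 3 of 20% O2 with Doxy, 0 without replicate 1 or 3 of 20% O2 without Doxy, and 3 were lower without replicate 3 of 3% O2 with Doxy. The large minus small difference of medians ranged from -0.1343 to -0.0752, -0.0723 to 0.0451, -0.0293 to 0.0141, 0.0274 to 0.0817 and 0.0167 to 0.0794 in these 5 comparisons.

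With no filter on low counts, 3 were higher for FDX2 loss at 20% O2, 0 higher at 3% O2, 0 lower for 3% O2 with Doxy and 0 higher for the difference. With the GC trend taken out, 12 were higher at 20% O2, 4 higher and 5 lower at 3% O2, 5 lower for 3% O2 with Doxy, 1 higher and 18 lower for 3% O2 without Doxy, and 5 higher and 4 lower for the difference, and the subunit difference was -0.0753 at 20% O2 and 0.0316 for 3% O2 without Doxy. With the length trend taken out, 11 were lower at 20% O2, 1 higher for 3% O2 without Doxy, 0 lower for 3% O2 with Doxy and 0 higher for the difference. Without the 3 libraries that stood apart, chosen after seeing the data, 11 were higher at 20% O2, 7 lower at 3% O2, 4 lower for 3% O2 with Doxy, 8 higher and 15 lower for 3% O2 without Doxy, and 6 higher and 2 lower for the difference, with a subunit difference of -0.0756 at 20% O2. DESeq2 called 6 lower at 3% O2, 5 lower for 3% O2 with Doxy, and 5 higher and 1 lower for the difference. With only the libraries compared, 11 were higher for 3% O2 without Doxy, 0 higher and 0 lower for FDX2 loss at 3% O2, and 0 lower for 3% O2 with Doxy. At an adjusted p under 0.01, 3 were higher and 10 lower at 20% O2, 1 higher and 4 lower for 3% O2 without Doxy, and 0 higher at 3% O2 and for the difference and 0 lower for 3% O2 with Doxy. With at least a 2-fold change the count was 0 in every comparison. With genes of up to 10% overlap alone, 4 were higher at 20% O2 and 1 lower at 3% O2. The latter was MRPL16, as MRPL30 is not in this set. With subunits assigned by structure the subunit difference at 20% O2 was -0.0939.

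With the replicate number as a block in the model of 4 conditions, 5 genes were higher and 13 lower at 20% O2, 0 and 2 at 3% O2, 0 lower for 3% O2 with Doxy, 3 and 7 for 3% O2 without Doxy, and 0 higher for the difference. With the block in the libraries compared alone, 10 were higher for 3% O2 without Doxy, 0 higher and 0 lower for FDX2 loss at 3% O2, and 0 lower for 3% O2 with Doxy. For 3% O2 without Doxy, the block with the GC trend taken out gave 1 higher and 19 lower and a subunit difference of 0.0228, and the block with the length trend taken out gave 21 lower and a subunit difference of 0.0416. Directions reversed for AURKAIP1 upon FDX2 loss at 20% O2 with the GC trend taken out (0.0061), for MRPL54 in the same setting (0.0535), for MRPS6 there without replicate 1 of 20% O2 with Doxy (-0.0298) or without the 3 libraries (-0.0288), for MRPS18A there without replicate 3 of 20% O2 with Doxy (-0.0183) or replicate 1 of 20% O2 without Doxy (-0.0106), and for MRPL12 at 3% O2 without Doxy with the GC trend taken out (-0.1664), also with the block (-0.1674). Leaving out libraries in turn gave MRPS6 values from -0.0298 to 0.1053 and MRPS18A values from -0.0183 to 0.1507. Of these 5 genes, AURKAIP1 and MRPL54 had passed the test as reported. The cause was not tested.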

Other observations

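GENCODE 29 lists 75 named pseudogenes for 34 of the 78 genes. Of these, 27 received a count, and 3 had a mean above 1 CPM, the highest being MRPL45P2 at 9.04 CPM. MRPL45 itself had 40.2 to 56.6 CPM, and reads shared between both cannot be told apart here.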
